A study of Mus musculus with 12 samples.

Results

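The revertant mouse mammary carcinoma line ME-B was compared with its derivative ME-B-T/t, which the labels call retransformed. The members were chosen by their labels alone: 2 of the 12 arrays of the series, 1 for each line. Both lines are labelled as breast cancer cell lines, and the series title ties them to WAP-SVT/t mice, in which the Wap promoter, that of a milk protein, drives the SV40 T/t antigens in mammary epithelial cells. The labels do not say how ME-B lost or ME-B-T/t regained the transformed state, whether either is a single clone, or how the cells were grown. The other arrays held another line, ME-A, mammary glands of female NMRI mice, glands of female WAP-SVT/t mice on the NMRI background, both on the first day of lactation and with 3 arrays each, and 3 WAP-SVT/t breast cancers. Ages were not given. With 1 array a line there was no replicate error, so the values are those of these arrays, no test was made between the lines, and "higher" or "lower" below means a difference of 2-fold or more unless a value is given.

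The large T antigen is known to bind p53 and the RB proteins, which otherwise hold back the cell cycle through target genes such as Cdkn1a and through the E2F factors, while small t binds the phosphatase PP2A. Interferons act through factors that include STAT2 and IRF9 and that bind a short element found in the promoters of antiviral genes. Fibroblast-like cells are known for collagens and small proteoglycans, and luminal mammary epithelium for keratins and junction proteins. None of these relations was tested here.

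Signals are MAS5 intensities scaled between arrays. A signal under the floor of 57.5, the 30th percentile of all signals, was set to it, and a fold against the floor is given as at least that size. A gene counted as measured where 1 of the 2 lines lay above the median signal of 139.9, which held for 7505 genes. Of these, 588 were higher in ME-B-T/t (7.83%) and 384 were lower (5.12%), and at 4-fold 89 were higher (1.19%) and 45 lower (0.6%). The log2 difference over all genes had a median of 0.05 and quartiles of -0.33 and 0.44. Higher genes made up 60.5% of those past 2-fold, but 43.0% when arrays were scaled to a common median, which moved the median of all genes by -0.18. In all, 13.0% of genes were past 2-fold. Between arrays of the same tissue group this share was 7.42% to 20.1% over 9 pairs of arrays. It was 20.4% between ME-A and ME-B and 24.4% between ME-A and ME-B-T/t. The share between the lines thus lay within the range seen between these tissue arrays. Those arrays differed more in RNA quality than the lines did. Their ratios of 3-prime to 5-prime Gapdh control signals were 0.969 to 40.3, against 0.753 to 0.949 in the lines. The part of RNA quality in this range, and in the tissue ranges given for lists below, was not tested.

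The arrays of both lines were alike in quality measures apart from a ribosomal control. Before scaling, their trimmed means differed by 1.03-fold, and the share of probe sets with a signal over the floor was 70.2% in ME-B and 72.4% in ME-B-T/t. The ratio of 3-prime to 5-prime Gapdh control signals was 0.897 in ME-B and 0.753 in ME-B-T/t. The 18S ribosomal RNA control read 80.0 in ME-B, 329 in ME-B-T/t and 138 in ME-A, and its part in the results was not tested. Of 316 genes past 2-fold with a further measured probe set, 189 had another past 2-fold in the same direction, and 3 (Oga, Pom121 and Rest) had one past 2-fold in the opposite direction.

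**Figure D1:**
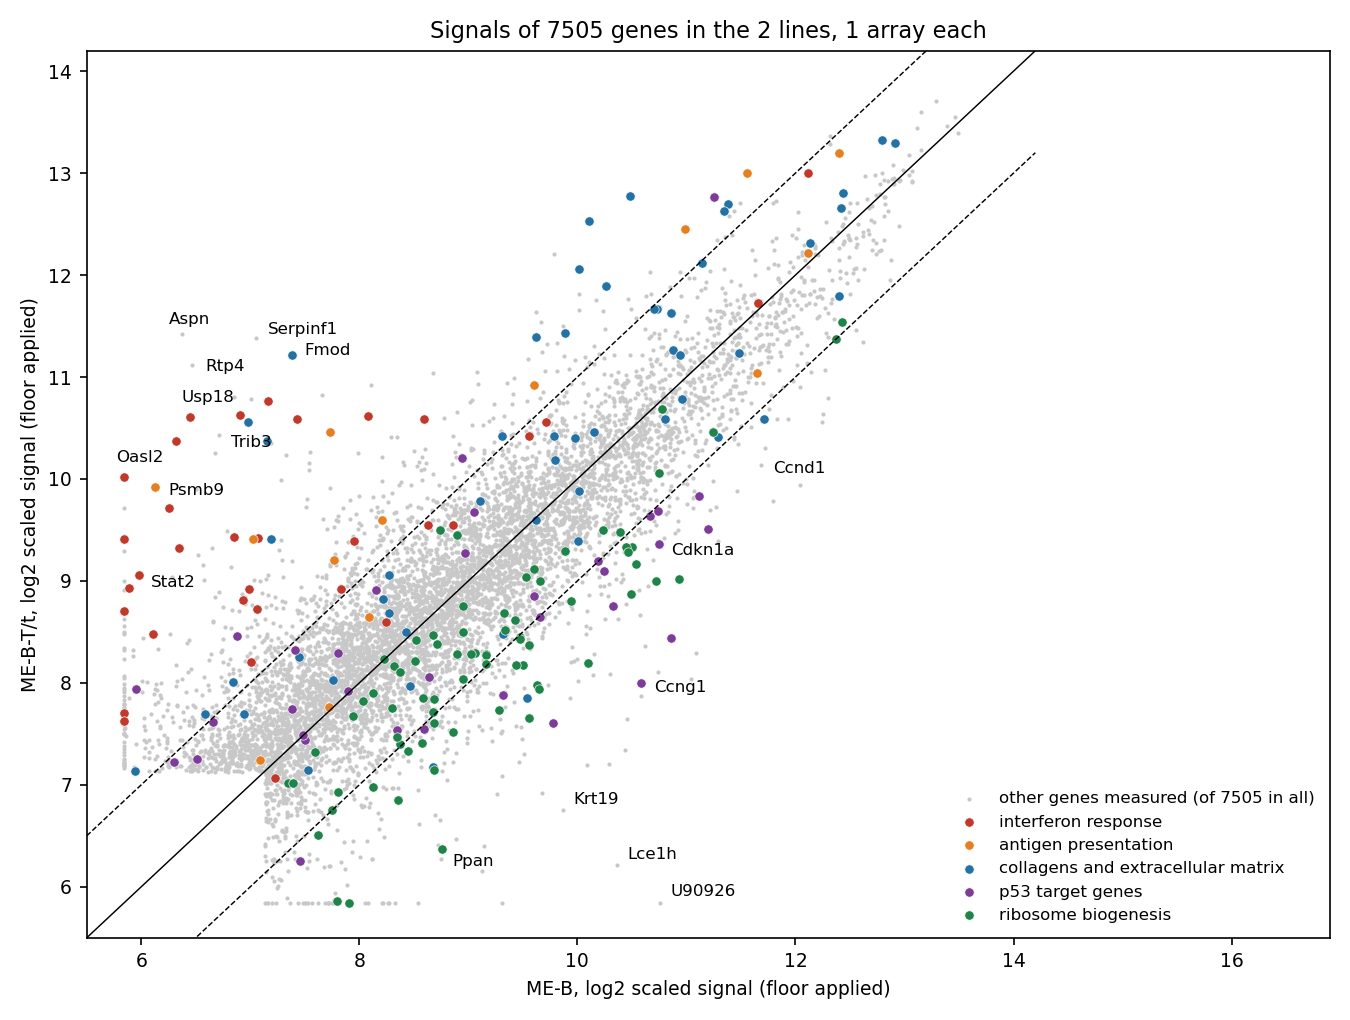
Log2 scaled signals of 7505 genes in ME-B (horizontal axis) and ME-B-T/t (vertical axis), 1 array each, with genes of 5 lists in colour. The solid line marks equal signals and the dashed lines a 2-fold difference; all but 1 of the 33 interferon genes and all but 1 of the 14 antigen presentation genes lie above the diagonal, with Usp18 at 87.2 in ME-B and 1560 in ME-B-T/t, and most ribosome biogenesis genes lie below it.

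Neither line carried the marker pattern of luminal mammary epithelium. Epcam, an epithelial adhesion molecule, read 9.05 in ME-B and 13.2 in ME-B-T/t, both under the floor, against 5308 in ME-A. Cdh1, the epithelial cadherin, read 74.4 in ME-B and 38.1 in ME-B-T/t against 2937 in ME-A. The keratin Krt8 read 199 in ME-B and 107 in ME-B-T/t against 3749 in ME-A, and between 3249 and 5456 in NMRI glands. Over the 20 luminal markers on the array the summed signal was 3064 in ME-B, 2522 in ME-B-T/t and 39157 in ME-A. Vim, the mesenchymal intermediate filament gene, was alike in the lines, at 11496 in ME-B and 10768 in ME-B-T/t, against 481 in ME-A. The milk protein gene Wap, whose promoter drives the transgene, read 108 in ME-B, 109 in ME-B-T/t and 112 in ME-A, all below the median, against 1603 to 6368 in WAP-SVT/t glands. Transcripts of the transgene were not analysed here.

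The largest set of genes that were higher in ME-B-T/t belonged to the interferon response. Of 33 measured members 25 were higher and 0 lower, a share of 75.8% against the 7.83% of all genes, and the median log2 difference was 2.00 against 0.05. Among the 9 pairs of arrays of the same tissue group, the largest share of this list past 2-fold in 1 direction was 35.1%. Leaving out genes below the median in either line, which removes genes that were low in ME-B, left 6 members higher and a median of 0.92.

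Genes of signalling and feedback were among these members. Usp18, the protease that removes ISG15 and restrains the interferon receptor, read 87.2 in ME-B and 1560 in ME-B-T/t, 17.9-fold higher. Irf7, the factor that amplifies interferon production, read 143 and 1743 in the same order, 12.2-fold higher. Irf9, a DNA-binding factor of interferon signalling, read 76.5 and 843, and its partner Stat2 read 63.1 and 535, 8.48-fold higher. Irf1, another interferon regulatory factor, differed by 0.92 on the log2 scale and did not reach 2-fold.

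Antiviral effectors followed the same direction. Ifit1, which binds foreign RNA caps, read 79.6 in ME-B and 1322 in ME-B-T/t, and Bst2, which tethers budding virions, read 120 and 1582. Oasl2, of the oligoadenylate synthetase family, read 27.4 in ME-B, below the floor, and 1041 in ME-B-T/t, at least 18.1-fold higher. Ifi27l2a read 11.6 and 682, at least 11.9-fold higher. Rtp4, an interferon-induced gene that was not on the list and was named by its size, read 88.7 and 2222, 25.1-fold higher. The guanylate-binding and immunity-related GTPases Gbp2, Gbp3, Igtp, Irgm1 and Iigp1 were each 2.71-fold to 8.90-fold higher, with the value for Gbp3 (at least 3.44-fold) a bound. Sensors of double-stranded RNA were higher too: Ifih1 read 134 in ME-B and 684 in ME-B-T/t, and Eif2ak2, the kinase PKR, 127 and 486. Among the smallest differences past 2-fold were Ifit2, at 228 and 483, and Rsad2, at 129 and 296. Members of these families share sequence, so a probe set can read more than its own gene.

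The other arrays were set beside the lines for the 25 interferon genes that were higher in ME-B-T/t. For 17 of these ME-B was the lowest of all 12 arrays, and ME-B-T/t was the highest for 10. The genes were chosen by the difference between these lines, which favours such ranks here and in the lists below. Rank shares over all genes past 2-fold were not computed. In ME-A, Usp18 read 1277, Irf7 2636, Ifit1 947, Oasl2 1503 and Rtp4 3778, all far above ME-B. On the array of ME-A, 22 of the 25 genes were 2-fold or more above ME-B. Both comparisons share the ME-B array, so the values are given side by side only. Few markers of immune cells lay above the median in either line. Of 15 T and NK cell markers 1 did in ME-B and 2 in ME-B-T/t, with summed signals of 1068 and 1920. These markers summed to 2278 to 3242 in NMRI glands, 1653 to 3936 in WAP-SVT/t glands and 1195 to 1702 in tumors. The sums of the lines included the chemokine Ccl5, itself an interferon-responsive gene, at 14.1 in ME-B and 628 in ME-B-T/t. The 22 macrophage and myeloid markers summed to 1943 in ME-B and 1782 in ME-B-T/t, against 13796 to 29386 in the glands.

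**Figure D2:**
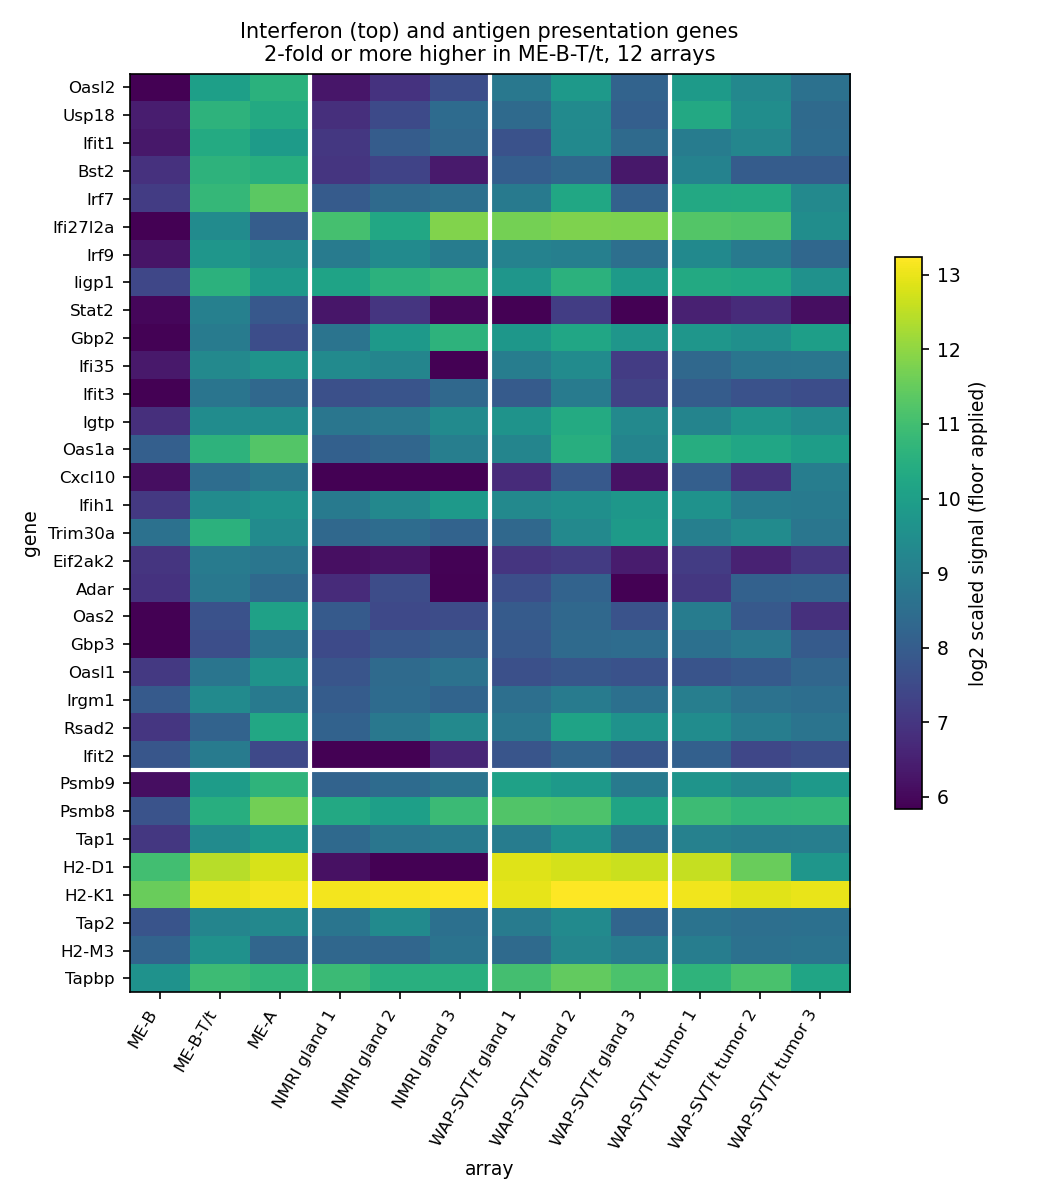
Log2 scaled signals of the 25 interferon genes (top) and 8 antigen presentation genes (bottom) that were 2-fold or more higher in ME-B-T/t, with 1 column for each of the 12 arrays and colour for the signal. The ME-B column has the lowest signal in 17 of the 25 upper rows and 7 of the 8 lower rows; colours compare arrays within a row, not genes with each other.

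Antigen presentation genes formed a separate list, with no measured member shared with the interferon list. Of 14 measured members 8 were higher and 0 lower, with a median log2 difference of 1.35, and the largest share in 1 direction among like tissue arrays was 35.0% against 57.1% here. With low genes kept in, the median was 0.45 and the count again 8. The immunoproteasome subunits Psmb9 and Psmb8 read 70.1 and 212 in ME-B and 970 and 1412 in ME-B-T/t, 13.8-fold and 6.65-fold higher. The peptide transporter genes Tap1 and Tap2 were 5.20-fold and 2.71-fold higher, and Tapbp, which links the transporter to class I molecules, 2.48-fold. The class I heavy chain genes H2-K1 and H2-D1 read 3007 and 2032 in ME-B and 8184 and 5587 in ME-B-T/t, and for each all 3 further measured probe sets were past 2-fold in the same direction. Class I genes are near-identical in places, so their separate values are uncertain. B2m, the class I light chain, read 5408 and 9364, 1.73-fold. The class II genes H2-Aa and H2-Ab1 and their regulator Ciita were below the median in both lines. For 7 of the 8 higher genes ME-B was the lowest of the 12 arrays.

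Promoters of the interferon genes were searched for the interferon-stimulated type of element, spelled here as GAAA, any 2 bases, GAAA, on both strands of the 250 bases before the RefSeq start site (GRCm38.p6). Of 7505 measured genes, 6134 had a promoter in the table, and 2.84% of these held a match. The share was 7.17% of genes higher at 2-fold, 23.9% of genes higher at 4-fold, 3.28% of genes lower at 2-fold and 6.06% of the 33 promoters of genes lower at 4-fold. In the interferon list 13 of 28 promoters held a match, and among its members past 2-fold 12 of 21. The motif was chosen after the differences were seen, and a match is a description of the letters only. The sequences below are those of Ifit1, Bst2, Stat2, Gbp2 and Ifit3, shown because they join a match to a difference of over 7-fold; the matches are in capitals, in the direction of the gene. They end at the base before the start site and lie at chr19:34640739-34640888 on the plus strand, chr8:71537473-71537622 on the minus strand, chr10:128270248-128270497 on the plus strand, chr3:142620513-142620662 on the plus strand and chr19:34583279-34583528 on the plus strand.
Ifit1: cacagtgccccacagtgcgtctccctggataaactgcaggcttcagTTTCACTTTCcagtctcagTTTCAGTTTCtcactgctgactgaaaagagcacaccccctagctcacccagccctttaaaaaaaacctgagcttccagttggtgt
Bst2: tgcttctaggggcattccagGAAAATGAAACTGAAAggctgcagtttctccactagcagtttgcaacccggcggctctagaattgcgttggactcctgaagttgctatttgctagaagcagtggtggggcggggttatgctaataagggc
Stat2: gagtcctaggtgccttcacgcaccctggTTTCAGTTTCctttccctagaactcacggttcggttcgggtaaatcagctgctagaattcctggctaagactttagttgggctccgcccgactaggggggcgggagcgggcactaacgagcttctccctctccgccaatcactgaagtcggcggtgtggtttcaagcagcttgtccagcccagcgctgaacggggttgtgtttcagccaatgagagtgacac
Gbp2: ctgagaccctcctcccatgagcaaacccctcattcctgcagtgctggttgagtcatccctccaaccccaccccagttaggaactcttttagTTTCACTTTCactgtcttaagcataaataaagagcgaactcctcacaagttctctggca
Ifit3: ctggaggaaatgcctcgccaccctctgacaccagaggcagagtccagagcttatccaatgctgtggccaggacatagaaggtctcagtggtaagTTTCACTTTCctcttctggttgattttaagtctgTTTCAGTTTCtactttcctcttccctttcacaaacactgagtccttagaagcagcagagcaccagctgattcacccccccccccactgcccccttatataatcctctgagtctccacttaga

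In Ifit1 the matches began 104 and 85 bases before the start site, and in Ifit3 156 and 122 bases before it. In Bst2 a pair of matches overlapped, beginning 130 and 124 bases before the start. Stat2 held 1 match, 222 bases upstream, beside a signal of 63.1 in ME-B and 535 in ME-B-T/t. Gbp2, with 1 match 59 bases upstream, read 59.2 and 487. Other members with large differences, among them Irf7, Irf9 and Oasl2, held no such letters in this window. Nor did Psmb9 and Tap1, whose start sites lie 226 bases apart on opposite strands.

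Extracellular matrix genes formed a further group. Of 54 measured members 17 were higher and 3 lower, with a median log2 difference of 0.57, and without genes that also serve as fibroblast markers 13 of 49 were higher and 3 lower. Arrays of the same tissue group differed as much on this list, with up to 50.8% of members past 2-fold in 1 direction against 31.5% between the lines. Small leucine-rich proteoglycans differed unequally. Aspn, asporin, which was not on the list, read 82.7 in ME-B and 2741 in ME-B-T/t, 33.1-fold higher, the largest difference among genes above the floor in both lines. Fmod, fibromodulin, read 167 and 2386, with all 5 further probe sets past 2-fold in the same direction. Ogn, osteoglycin, read 1227 and 3797, 3.10-fold higher. Bgn, biglycan, read 551 and 883 and did not reach 2-fold, and Dcn and Lum, decorin and lumican, were below the median in both lines.

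Several collagens were higher, to differing degrees. Col11a1 read 126 in ME-B and 1506 in ME-B-T/t, 11.9-fold, and Col3a1 790 and 2697, 3.42-fold. Col12a1 was 4.12-fold, Col14a1 4.66-fold, Col6a1 2.49-fold and Col6a3 2.44-fold higher. The probe set that stood for Col1a1 read 143 and 1323, 9.27-fold higher, but the other probe set of this gene read 253 and 347, a log2 difference of 0.46, so its value is uncertain. Its fibril partner Col1a2 read 216 and 260. The matricellular genes Postn and Fbln5, encoding periostin and fibulin-5, read 1433 and 1099 in ME-B and 7010 and 5924 in ME-B-T/t, 4.89-fold and 5.39-fold higher. Serpinf1, a secreted inhibitor of vessel growth, read 132 and 2662, 20.1-fold higher. Lower members were Has2, the hyaluronan synthase, at 745 and 232, Col7a1, at 408 and 145, and the syndecan Sdc4, at 3361 and 1544.

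For the higher matrix genes ME-A lay more often below ME-B than above it, unlike for the higher interferon genes. ME-B-T/t was the highest of all 12 arrays for 11 of the 17 members, which were chosen as higher in that line. ME-A was 2-fold or more below ME-B for 9 of them and at the floor for 6, and its Col3a1 signal was 19.1. Over the 17 fibroblast markers the summed signal was 23762 in ME-B, 33965 in ME-B-T/t and 2764 in ME-A. Of these markers 14 lay above the floor in either line, Pdgfrb read 1144 in ME-B and 1571 in ME-B-T/t, and Dcn and Fap were under the floor in both. Fewer cells of a type and less RNA per cell cannot be told apart in such bulk samples.

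**Figure D3:**
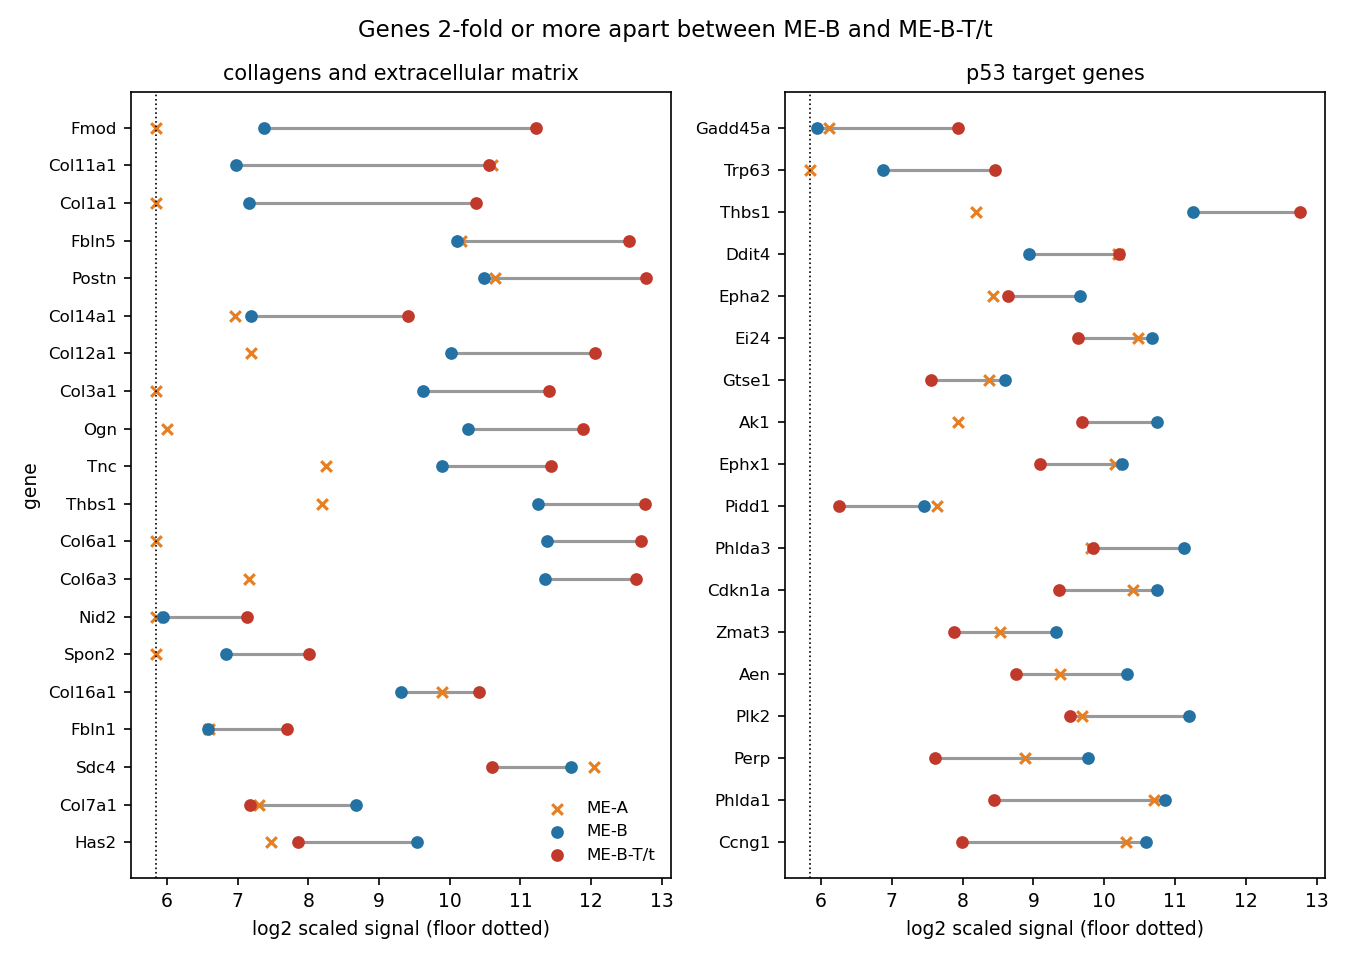
Log2 scaled signals of the 20 matrix genes (left) and 18 p53 target genes (right) that were 2-fold or more apart, in ME-B (blue), ME-B-T/t (red) and ME-A (orange crosses), 1 array each; the dotted line is the floor. On the left 17 of 20 red points lie to the right of the blue ones, and on the right 14 of 18 lie to the left.

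Regulators of the mesenchymal state and of patterning were higher more often than lower. Of 36 measured epithelial-mesenchymal regulators 8 were higher and 1 lower, though only 5 were higher with arrays scaled to a common median. The higher share was 22.2%, against 7.83% of all genes and up to 30% of this list in 1 direction between like tissue arrays. Prrx1, a mesenchymal homeobox factor, read 184 in ME-B and 897 in ME-B-T/t, with 3 further probe sets in the same direction. The repressor Snai2 read 313 and 1358, Twist1 387 and 1096, and the mesenchymal cadherin Cdh11 523 and 1476. The lower member was Ccn2, a TGF-beta and YAP target, at 4936 and 2144. In the WNT, Notch and Hedgehog list 11 of 36 were higher and 1 lower, with 5 to 11 higher across the other settings at 2-fold. Its higher share was 30.6%, against up to 27.6% in 1 direction between like tissue arrays. The WNT receptors Fzd4 and Fzd1 read 161 and 36.7 in ME-B and 1206 and 229 in ME-B-T/t, and the secreted antagonist Sfrp2 884 and 4717. Notch3 read 137 and 512, and its target Hey1 30.1, below the floor, and 183. The Hedgehog effectors Gli1, Gli2 and Gli3 all read under 90 in ME-B and between 169 and 204 in ME-B-T/t. Wnt4, a ligand of mammary branching, was lower, at 210 and 18.1.

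Among growth factors and receptors 10 of 37 measured genes were higher and 2 lower, with 5 to 13 higher across the other settings at 2-fold. Igfbp5, which binds insulin-like growth factors, read 102 in ME-B and 1222 in ME-B-T/t on the probe set used, and 169 and 312 on the other, so the size of its difference is uncertain. Fgfr2, a receptor of mammary epithelium, read 381 and 1186, and Gas6, the ligand of AXL, 1038 and 3227. Hbegf, a ligand of the EGF receptor, was lower, at 1536 and 235, and Errfi1, an inhibitor of that receptor, read 1090 and 147.

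Several keratin and junction genes measured in ME-B were lower in ME-B-T/t. Of 45 members on the array 19 were measured, 8 lower and 1 higher, with a median log2 difference of -0.89, which became 0.00 when genes under the median were kept in. Across the other settings at 2-fold 4 to 10 members were lower. Krt19 read 932 in ME-B and 108 in ME-B-T/t, 8.65-fold lower, and 3149 in ME-A. This difference was matched in 2 of the 9 pairs of like tissue arrays. Krt14 read 243 and 11.8, and the desmosomal gene Dsp 206 and 20.2, at least 4.23-fold and 3.58-fold lower. Perp, a desmosomal gene that is also a p53 target, read 877 and 195, and the gap junction gene Gja1 2777 and 1346. The higher member was the claudin Cldn3, at 67.3 and 160 against 2827 in ME-A. Its other probe sets were under the floor in both lines and read 1243 to 2452 in ME-A, so its difference is uncertain. Outside this list, U90926 read 1734 in ME-B and 13.7, below the floor, in ME-B-T/t, at least 30.2-fold lower. Among genes above the floor in both lines, large differences downward were those of Lce1h, a cornified envelope gene, at 1315 and 74.3, Klf5, an epithelial transcription factor, at 1388 and 162, and the activin subunit gene Inhbb, at 1255 and 148. The second probe sets of Klf5 and Inhbb read 228 and 380 in ME-B and 150 and 190 in ME-B-T/t, below 2-fold. Cadm1 and Itga6, encoding adhesion molecules, differed by -2.81 and -2.26 on the log2 scale, each with all further measured probe sets in the same direction.

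Several p53 target genes were lower in ME-B-T/t. Of 34 measured members 14 were lower and 4 higher, a lower share of 41.2% against 5.12% of all genes, and the largest share in 1 direction among like tissue arrays was 32.4%. The median log2 difference was -0.67, while between like tissue arrays the median of this list reached 0.77 in absolute size. With genes under the median kept in, 15 were lower and 4 higher, and the median was -0.00. Ccng1, cyclin G1, read 1539 in ME-B and 255 in ME-B-T/t, 6.03-fold lower on the probe set used and past 2-fold on both others. Cdkn1a, the CDK inhibitor p21, read 1721 and 657, 2.62-fold lower. Phlda1 read 1860 and 347, Plk2, a stress kinase, 2349 and 731, Zmat3, an RNA-binding regulator, 639 and 235, and Aen, an apoptotic nuclease, 1285 and 432. Mdm2, which degrades p53 and is its target, read 1166 and 585 on the probe set used, 1.99-fold lower and just short of the limit. Its other probe set read 387 and 273, a log2 difference of -0.50. The signal of Cdkn1a varied as much in 2 of the 9 pairs of like tissue arrays, and that of Mdm2 in 1.

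The 4 higher members were Gadd45a, a growth arrest gene, at 61.9 and 246, the p53 relative Trp63, at 118 and 352, the matrix gene Thbs1, at 2434 and 6954, and Ddit4, an inhibitor of mTORC1, at 491 and 1184. ME-A read 1272 for Ccng1, 1353 for Cdkn1a and 1021 for Mdm2, and was 2-fold or more below ME-B for 4 of the 14 lower members and above it for 0. Trp53 itself was not analysed here. Cdkn2a, which encodes the p53 activator ARF and the inhibitor p16, was under the floor in both lines, at 49.5 and 46.2, and read 565 in ME-A.

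Cell cycle genes did not separate the lines upward. Of 52 measured G1/S and DNA replication genes 0 were higher and 8 lower, with a median log2 difference of -0.30, and of 50 G2/M genes 0 were higher and 2 lower, with a median of -0.22. Between like tissue arrays up to 15.7% of the G1/S list and 13.3% of the G2/M list were past 2-fold in 1 direction, against 15.4% of the first list here. The 8 lower members were the cyclin genes Ccnd1, Ccne1 and Ccne2, the nucleotide enzyme genes Rrm1, Rrm2 and Tk1, the origin recognition gene Orc1 and Uhrf1, which guides DNA methylation after replication. Ccnd1 read 3288 in ME-B and 1130 in ME-B-T/t, Ccne1 407 and 176, Ccne2 401 and 143, Rrm2 5052 and 1773, Tk1 1825 and 818 and Uhrf1 1213 and 496. The replication clamp gene Pcna read 5397 and 4542, the topoisomerase gene Top2a 2079 and 2143 and the proliferation marker Mki67 1825 and 1416. Hmmr counted as lower on the probe set used, while its 3 others differed by -0.41, 0.04 and 0.80 on the log2 scale.

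Among RB pathway genes those past 2-fold were mostly cyclins. Of 17 measured genes of the RB family, E2F factors and cyclin-dependent kinases 5 were lower and 0 higher: Ccnd1, Ccnd2, Ccne1, Ccne2 and E2f6. The lower share of 29.4% stood against 5.12% of all genes and up to 23.1% in 1 direction between like tissue arrays. The list median was -0.31, while between like tissue arrays it reached 0.53 in absolute size. Ccnd1 and Ccnd2 each varied as much in 2 of the 9 pairs of like tissue arrays. Ccnd2 read 1243 in ME-B, 463 in ME-B-T/t and 138 in ME-A. Rb1, Rbl1 and Rbl2, which encode the pocket proteins that large T binds, read 307, 336 and 135 in ME-B and 499, 496 and 248 in ME-B-T/t. On these probe sets the log2 differences of 0.70, 0.56 and 0.87 did not reach 2-fold. Rbl2 had 1 other measured probe set, which was past 2-fold higher. E2f1 read 559 and 518. The inhibitor Cdkn1b, p27, was higher on the probe set used, at 279 and 906, while its other probe set was under the floor in both lines, at 51.3 and 49.9. Of 13 measured PP2A genes 0 were past 2-fold in either direction, with a median of -0.20.

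Many genes of ribosome production were lower. The list was added after the values were seen, so its count is no independent evidence. Of 75 measured members 29 were lower and 0 higher, 38.7% against at most 14.5% in 1 direction among like tissue arrays, and the median was -0.88. For 25 of the 29, chosen as higher in ME-B than in ME-B-T/t, ME-B was the highest of the 12 arrays. Ppan read 433 in ME-B and 82.7 in ME-B-T/t, the snoRNP gene Nhp2 1960 and 520, the helicase gene Ddx21 753 and 201 and the nucleolar gene Gnl3 1439 and 468. Polr1b and Polr1e, subunits of RNA polymerase I, were 2.20-fold and 3.81-fold lower. In the list of MYC and its growth targets 7 of 22 genes were lower, or 11 with a common median, and 2 were higher. The latter were the MAX partners Mxi1 and Mxd4 that oppose MYC. Myc itself read 640 and 356, 1.80-fold lower, and did not reach 2-fold. This list shares members with the ribosome list. Without them 24 of 66 ribosome production genes were lower, with a median of -0.87. Odc1, which starts polyamine synthesis, read 3371 and 1261, and Srm, the spermidine synthase gene, 2313 and 733. The 31 ribosomal protein genes held 0 members past 2-fold, with a median of -0.03.

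Of 32 measured genes of the unfolded protein response and amino acid stress 11 were higher in ME-B-T/t and 1 lower, with a median of 0.69, and 20 did not reach 2-fold. Among 18 aminoacyl-tRNA synthetase genes, a list added after the values were seen, 0 were higher and 2 lower, with a median of 0.01. Trib3, a pseudokinase induced by ATF4, read 105 in ME-B and 1384 in ME-B-T/t, 13.2-fold higher, and its other probe set differed by 2.42 on the log2 scale. Ddit3, the stress factor CHOP, read 187 and 1232, 6.57-fold higher, and Chac1, which degrades glutathione, 439 and 1555. The asparagine synthetase gene Asns read 1639 and 3606, and the transporter partners Slc7a5 and Slc3a2 2623 and 2684 in ME-B and 5304 and 6108 in ME-B-T/t. ME-B-T/t was the highest of the 12 arrays for 8 of the 11. The chaperone-side gene Creld2 was the lower member, at 558 and 186. Further chaperone-side genes differed in both directions without reaching 2-fold. On the log2 scale Hspa5 differed by -0.69, Hsp90b1 by -0.31, Dnajc3 by -0.93, Sdf2l1 by -0.75 and Dnajb9 by 0.72. An ATF4 type of element, spelled as TGATG, any base, AA, on either strand, was searched after the values were seen: it was in 1.87% of all promoters, 7.46% of those of genes higher at 4-fold, and 2 of 11 of this list's members past 2-fold. Chac1 is shown as a member with a match, 193 bases upstream at chr2:119350992-119351241 on the plus strand, with the reverse complement of these letters in capitals.
Chac1: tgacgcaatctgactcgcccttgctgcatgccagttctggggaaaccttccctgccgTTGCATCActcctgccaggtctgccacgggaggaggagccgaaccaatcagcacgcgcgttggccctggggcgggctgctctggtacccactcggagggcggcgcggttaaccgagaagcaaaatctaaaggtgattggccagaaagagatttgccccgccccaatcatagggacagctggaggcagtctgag

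Of 19 measured genes of cholesterol synthesis and uptake 8 were higher and 0 lower, or 5 with a common median, and the median was 0.93. The entry enzyme gene Hmgcs1 read 816 in ME-B and 2430 in ME-B-T/t with 3 further probe sets past 2-fold in the same direction, Fdps, which makes farnesyl diphosphate, 790 and 3179, and Fdft1, which commits it to sterols, 374 and 1150. The pathway's regulator Srebf2 read 600 and 1234. The enzyme genes Sqle and Nsdhl, at log2 differences of 0.93 and 0.98, fell short of 2-fold, as did Pmvk, Lss, Ebp, Sc5d and Dhcr7. ME-B-T/t was the highest of the 12 arrays for 7 of the 8. Among like tissue arrays up to 38.9% of this list was past 2-fold in 1 direction, against 42.1% here. A sterol type of element, TCAC, any base, CCAC, was in 0.88% of all promoters and in 1 of 14 of this list, that of Hmgcs1, 137 bases upstream at chr13:119690201-119690350 on the plus strand.
Hmgcs1: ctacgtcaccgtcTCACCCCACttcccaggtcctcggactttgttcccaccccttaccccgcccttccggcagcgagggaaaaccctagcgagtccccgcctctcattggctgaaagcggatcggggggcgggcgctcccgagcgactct

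**Figure D4:**
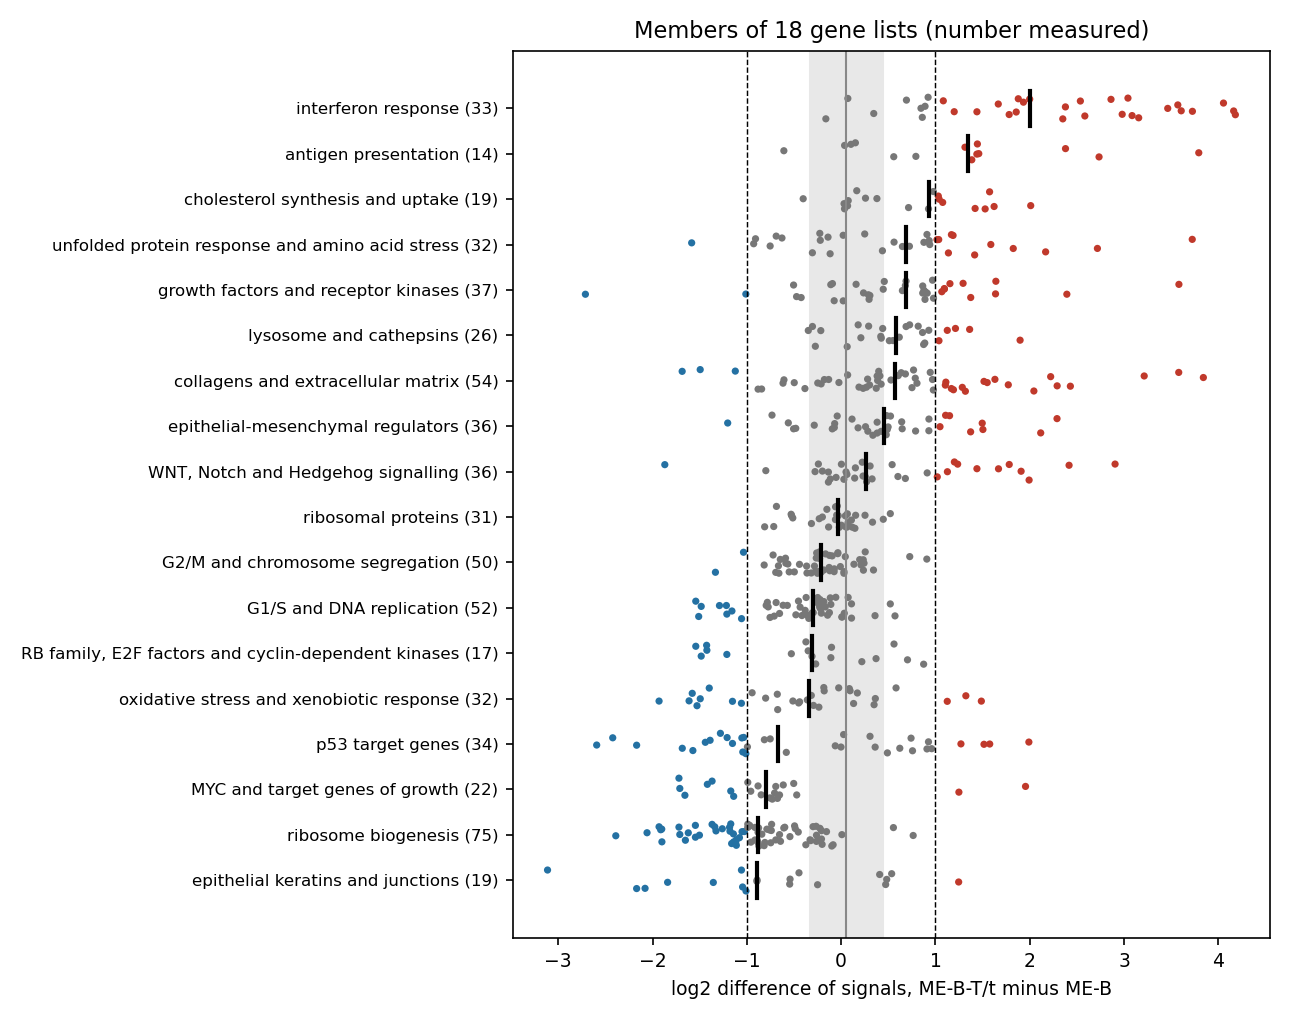
Log2 differences between the lines (ME-B-T/t minus ME-B) for the measured members of 18 gene lists, 1 point a gene, red when 2-fold or more higher and blue when lower; thick bars are list medians, the grey band and line the quartiles and median of all genes, and dashed lines 2-fold. The interferon list has the highest median, 2.00, and the keratin and junction list the lowest, -0.89; the ribosome biogenesis list was added after the values were seen.

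Oxidative stress, growth signalling and protease genes were mixed. Of 32 measured genes of the oxidative stress and xenobiotic response 8 were lower and 3 higher. The lower ones included NRF2 targets: Hmox1 read 1369 in ME-B and 519 in ME-B-T/t, Gclc, which starts glutathione synthesis, 291 and 95.1, and Gclm 826 and 397. Of 24 AP-1 and immediate early genes 7 were lower and 4 higher. Among the former were Fosl1, at 818 and 121, and the ERK-responsive genes Dusp6, at 629 and 233, and Etv4, at 680 and 273. The higher ones were Atf3, Nr4a1, Jund and Klf2, the last below the floor in ME-B. Fos, Egr1, Spry1 and Spry2 did not reach 2-fold, at log2 differences of 0.15, -0.21, 0.85 and 0.03. Arrays of like tissues differed by up to 47.8% of this list in 1 direction, against 29.2% here. Of the matrix proteases and inhibitors 5 of 25 were higher and 4 lower. Serpinb2, an inhibitor of plasminogen activators, read 635 and 15.4, at least 11.1-fold lower, Plaur, the urokinase receptor gene, 1005 and 298, Mmp3 428 and 101 and Timp1 4855 and 1511.

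The glands give a replicated comparison of WAP-SVT/t with NMRI tissue that shares no array with the lines. H2-D1 differed between these groups in opposite directions on different probe sets. The probe set used for the lines read 31.9 to 72.4 in NMRI and 6398 to 7576 in WAP-SVT/t glands. On the probe set used for the glands the log2 difference was -5.48. Whether the groups differ in more than the transgene was not tested. In limma with Benjamini-Hochberg adjustment over 7898 genes, 478 were higher (6.05%) and 318 lower (4.03%) in WAP-SVT/t than in NMRI glands, with n = 3 arrays each. With the replicate number as a block, fitted to the 6 gland arrays alone over 7465 genes, 664 were higher and 511 lower. The values below are from the fit without the block, which ignores any pairing by number, unless the block is named. Leaving out NMRI gland 1 or 2 gave 280 or 297 higher genes, and leaving out NMRI gland 1, 2 or 3 gave 114, 129 or 208 lower ones. The gland arrays differed in RNA quality, with Gapdh 3-prime to 5-prime ratios of 2.28 to 40.3 in NMRI glands and 2.49 to 22.5 in WAP-SVT/t glands, and its part in the counts was not tested.

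Genes higher in the transgenic glands were seldom higher between the lines. Of 443 such genes measured in the lines 17 were higher in ME-B-T/t (3.84%) and 34 lower (7.67%), with a median of -0.23, against 7.09% and 4.81% of all 6908 genes measured in both. Of 220 genes lower in the transgenic glands by the same fit without the block, 24 were higher in ME-B-T/t (10.9%) and 6 lower (2.73%). With the replicate block, of 593 genes higher in the glands 5.56% were higher and 7.42% lower between the lines, and of 370 genes lower in the glands 11.6% and 4.05%, against 6.85% and 4.63% of 6614 genes. The cell cycle showed the contrast: 42 of 51 G1/S genes and 47 of 52 G2/M genes were higher in the glands, with median log2 differences of 2.25 and 2.85, while 0 of either list was higher between the lines. With the replicate block 38 of 46 G1/S genes and 45 of 48 G2/M genes were higher in the glands. Mki67 read 53.8 to 381 in NMRI glands and 3160 to 4054 in WAP-SVT/t glands, without overlap, and both lines lay between these ranges. Rrm2, higher by 3.53 on the log2 scale in the transgenic glands (adjusted p = 3.6e-05 by limma, n = 3 arrays a group), was 2.85-fold lower in ME-B-T/t than in ME-B. With the block its adjusted p by limma in the glands was 5.0e-04. Of 36 interferon genes 3 were higher and 1 lower in the glands, and with the block 4 of 34 were higher and 1 lower. Oasl2 and Psmb9 were higher in the glands as in ME-B-T/t, by 1.99 and 1.14 on the log2 scale in the glands (adjusted p = 0.020 and 0.046 by limma, n = 3 arrays a group). With the replicate block the adjusted p by limma was 0.019 for Oasl2 and 0.055 for Psmb9, which then missed the threshold. The comparison of gland and line differences was not tested, since the lines have no replicates.

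**Figure D5:**
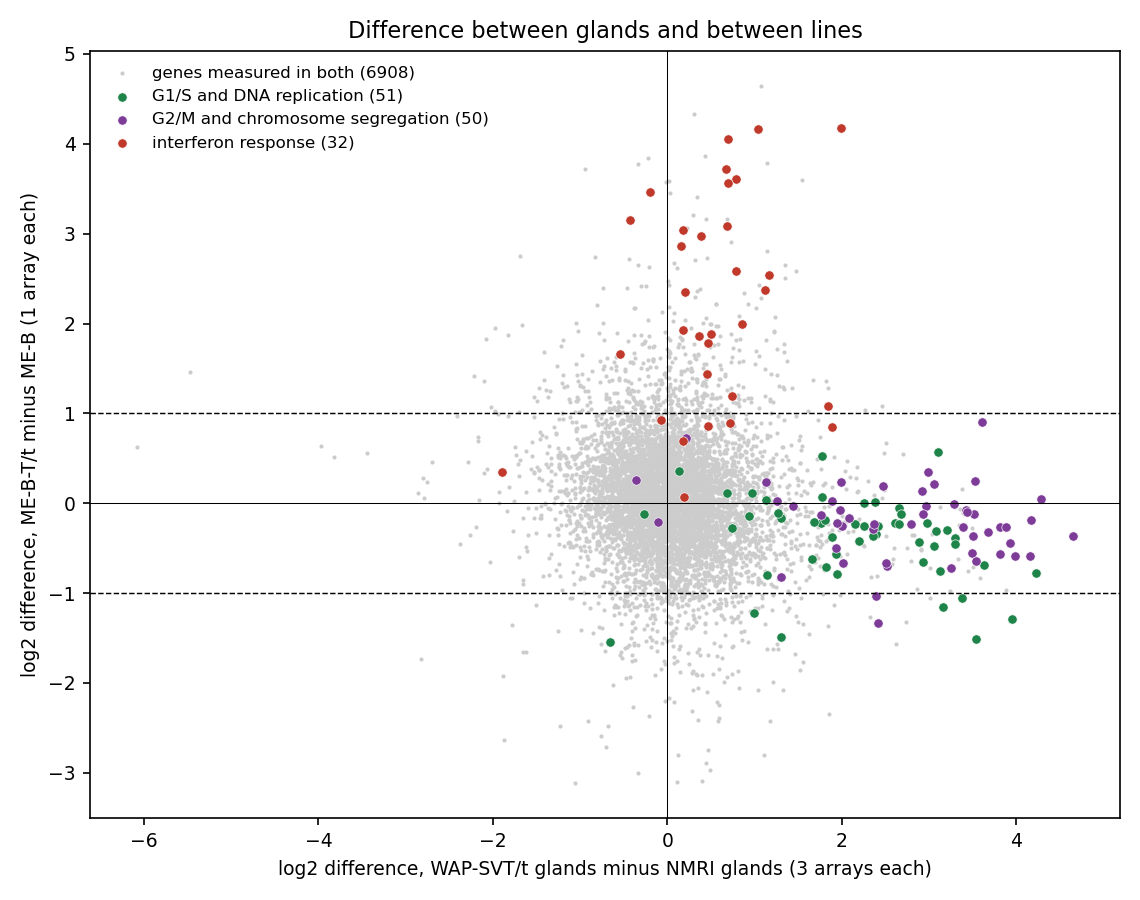
Log2 difference between WAP-SVT/t and NMRI glands (horizontal axis, 3 arrays each) and between ME-B-T/t and ME-B (vertical axis, 1 array each) for 6908 genes, with 3 lists in colour and dashed lines at 2-fold between the lines. G1/S and G2/M genes spread to the right near or below 0 on the vertical axis, and interferon genes spread upward.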

How the data were processed

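RNA of 12 samples was measured on single-colour arrays of 22690 probe sets. The deposited values are linear intensities, 1 a probe set, and MAS5 was the authors' tool, per the submitters' processing notes; no source used here gives its version, scaling target or detection calls. Scaling brought every array's mean, trimmed by 2% at each end, to a common value. The 30th percentile of the pooled signals served as floor for lower ones, log2 values were taken, and the 64 control probe sets were left out. By the platform's table, with symbols updated through RefSeq, 20380 probe sets named 1 gene, 691 several and 1555 none; the last 2 classes were left out. Where a gene had several probe sets, the brightest by mean log2 over the 3 lines was used.

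Lines were compared by log2 difference with no test, since the number of arrays limits the precision. Glands and tumors were fitted as 3 groups with limma 3.58.1 in R 4.3.3 (lmFit, eBayes with trend, Benjamini-Hochberg, two-sided, adjusted p under 0.05), tested on simulated data first. The labels do not say that like-numbered samples share an animal or day. Their deviations from the group means correlated at 0.22, 0.37 and 0.38 over genes, so a further fit took the number as a block. The main fit did not use the number. Gapdh 3-prime to 5-prime ratios of numbers 1, 2 and 3 were 12.9, 2.28 and 40.3 in NMRI glands. In WAP-SVT/t glands they were 10.7, 2.49 and 22.5. Pairing by number and RNA quality thus cannot be told apart. Nothing says that the arrays of a group came from separate preparations beyond their sample numbers, so p-values measure the spread between these samples.

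Named genes were the 12 largest differences each way above the floor in both lines with no opposing probe set, the 8 highest signals each way at the floor in the other line, the 4 largest differences of each list past 2-fold, and a fixed set of cell cycle, p53 and epithelial genes. Further members were named to show their group, after their values were seen. The members and lists were chosen with earlier results of these data known. Promoter sequences are from RefSeq (GRCm38.p6). Alternatives covered scaling, floor, filter, probe set rule and fold.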

Additional observations from a re-analysis of the deposited data

How the results depend on the processing

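With 1 array a line, no difference between the lines has a replicate check, and array and line cannot be told apart. Of 131 named genes past 2-fold, 104 stayed past it in the same direction in every alternative that gave a value and 27 did not in at least 1. Requiring both lines above the median gave 330 higher genes and an interferon median of 0.92. At 1.5-fold 1375 genes were higher and 1022 lower, and at 4-fold 89 and 45. With no filter on low signals, the medians were -0.00199 for p53 targets, 0.45 for antigen presentation and 0.00 for epithelial keratins and junctions. No named gene past 2-fold changed sign. The medians of 6 lists, all close to 0, did, among them aminoacyl-tRNA synthetases (-0.15 with a common median) and ribosomal proteins (0.01 with signals as deposited). A common median also turned the overall balance, with the median of all genes at -0.13 instead of 0.05 and 43.0% instead of 60.5% of the differences past 2-fold upward.

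In the glands, with the replicate number as a block on the 6 gland arrays, 511 genes were lower instead of 318, and the same 6 arrays without the block gave 300. Leaving out each array in turn gave 280 to 446 higher and 114 to 293 lower genes. The E2F type of element (TTCCCGC or TTGGCGC) was in 10.8% of all promoters, 8.48% of higher and 10.8% of lower genes, and TTCCCGC alone in 7.11%, 5.22% and 6.56%; the CHR type (TTTGAA or TTCGAA) was in 12.1% of all and 18 of 42 G2/M promoters. Floors moved the size, not the direction, of differences against a line at the floor.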

Other observations

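Secreted signals and metabolism held further differences between the lines. Of 23 measured cytokine, chemokine and NF-kB genes 6 were higher in ME-B-T/t and 2 lower. Their higher share of 26.1% stood against 7.83% of all genes and up to 51.7% of this list in 1 direction between like tissue arrays. The chemokines Cxcl12 and Cxcl14 read 488 and 60.8 in ME-B and 1204 and 321 in ME-B-T/t, and Il18 read 167 and 586. Lif, a cytokine of the interleukin-6 family, was lower, at 239 and 36.5. Of 25 measured genes of glycolysis and the hypoxia response 4 were lower and 2 higher, with a median of -0.26. Their lower share of 16.0% stood against 5.12% of all genes and up to 17.2% of this list in 1 direction between like tissue arrays. The lower ones included the glucose transporter gene Slc2a1, at 1512 and 481, and the hexokinase gene Hk2, at 590 and 188. The transferrin receptor gene Tfrc read 1706 and 275 and the metalloreductase gene Steap1 983 and 295; both were chosen after their values were seen. Tfrc, Steap1 and Slc2a1 were also lower in WAP-SVT/t than in NMRI glands, with log2 differences of -1.88, -2.83 and -1.62 (adjusted p = 0.0071, 2.0e-04 and 0.018 by limma, n = 3 arrays a group). With the replicate number as a block the adjusted p by limma was 0.0029, 4.1e-04 and 0.0045 in that order.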
